A study of Mus musculus with 924 samples.

Results

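The granule nuclei described here were taken from dissected mouse dentate gyrus, some sorted on a fluorescent tag that Cre switches on in vGAT-expressing cells and some collected without that selection. A nucleus was counted as a granule nucleus when Prox1 was above 0, Gad2 was at 0 and at least 2 of the 5 genes C1ql2, C1ql3, Fam163b, Glis3 and Sema5a were above 0. The rule found 285 such nuclei among the 133 sorted and 305 unsorted dentate gyrus nuclei, in a series of 924 nuclei. Of these, 49 were sorted (40 from preparation 1 and 9 from preparation 2) and 236 were unsorted (89, 39, 58 and 50 from preparations 1 to 4). Nuclei of 1 group with the same number after the letter A in their labels are called a preparation.

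The sorted nuclei came from mice aged 12 weeks that carry the Slc32a1tm2(cre)Lowl allele, known as vGAT-Cre. Their dorsal and/or ventral hippocampus had received a high-titer AAV1/2 carrying EF1a-DIO-EYFP-KASH, and GFP-labelled nuclei were collected 2 weeks later. The unsorted nuclei came from C57BL/6 mice, also aged 12 weeks, for which no injection is recorded. They too passed through a sorter into plates, but were not selected on a tag. Tissue of both groups was fixed in RNAlater, nuclei were isolated on a sucrose gradient, and cDNA libraries were made from each nucleus with a modified Smart-seq2 protocol. Strain, injection, the tag with its gate, and preparation changed together between the groups, so their parts in any difference cannot be told apart. The labels do not say whether a preparation is 1 animal or several, so the p-values compare with a spread that may be only technical.

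Dentate granule cells are the glutamatergic neurons of the dentate gyrus, and Prox1 is the transcription factor that marks their identity. The vesicular GABA transporter vGAT, encoded by Slc32a1, loads GABA into synaptic vesicles and is used to mark inhibitory neurons. KASH domains anchor proteins in the outer nuclear membrane, where the nesprins encoded by the Syne genes join SUN proteins to form the LINC complex, which ties the nucleus to the cytoskeleton. A KASH-tagged fluorescent protein therefore labels the nuclear envelope of cells that carried Cre. The comparison asks how nuclei with granule features that were collected through this tag differed in RNA from granule nuclei collected without it.

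The rule kept 36.8% of the sorted dentate gyrus nuclei (95% Wilson interval 29.1 to 45.3%) and 77.4% of the unsorted ones (72.4 to 81.7%), which describes the sort and is no finding. At the edge of the rule, 10 of the 49 sorted and 3 of the 236 unsorted members carried exactly 2 of the 5 granule genes, while 7 sorted and 1 unsorted nuclei that otherwise passed carried only 1. Detectable Gad2 alone removed 19 nuclei from each group. The median number of genes detected per granule nucleus was 4745 and 4056 in the sorted preparations, and 4635, 4845, 4709 and 4888 in the unsorted ones. Sorted preparation 2 was lowest, and sorted preparation 1 lay among the unsorted ones (exact two-sided permutation test over preparations, p = 0.4). With means in place of medians, both sorted preparations (4487 and 3956 genes) lay below all unsorted ones (4589, 4790, 4717 and 4897), with p = 0.133 in the same exact test. That is the smallest p that 2 against 4 preparations can give, so the test could not have called a difference. Within sorted preparation 1, the nuclei labelled VGAT-A1-P2-DG stood lower, with a median of 3222.5 genes in 12 nuclei against 5130.5 in the 28 labelled VGAT-A1-P1-DG. Read depth is not in the deposited table, so the number of detected genes stands in for it.

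Sorted granule nuclei had more genes at lower than at higher levels. Of 10696 tested genes, 238 rose (2.23%) and 1650 fell (15.4%) in the sorted nuclei (limma on preparation means of log2(value + 1), Benjamini-Hochberg adjusted p under 0.05). A gene was tested when it was detected in at least 20% of the granule nuclei of at least 1 preparation, so a gene seldom detected in 1 group entered through the other. Among the genes described here, Vim, Gfap, Ntsr2 and Grm3 entered through the sorted preparations alone and Dpysl5, Egr3, Fibcd1 and Ajap1 through the unsorted ones alone. The calls of these genes, and list counts that include them, are a description only. The median over all tested genes was -0.38 log2 units, so each difference below is given relative to that median, while its standard error and adjusted p belong to the difference before that shift. The preparations of both groups did not overlap for 233 of the 238 genes and for 1631 of the 1650, against 10.9% of all tested genes lying above and 28.3% lying below without overlap. The calls were made on the same means, so this lack of overlap adds no separate support. The split depended on scaling: 12.6% of called genes were higher as reported, 43.2% after quantile normalization (5.95% of tested genes higher, 7.82% lower) and 22% when detected genes per preparation entered as a covariate (0.383% higher, 1.36% lower). Without sorted preparation 2, whose 9 granule nuclei are below the minimum of 10 set for a preparation, 350 genes were higher and 1128 lower, and 114 of the 238 and 921 of the 1650 were called the same way. Without sorted preparation 1, which leaves those 9 nuclei alone, the counts were 1174 and 3385. Leaving out unsorted preparation 1, 2, 3 or 4 gave 89, 120, 78 and 100 higher genes and 1148, 1259, 996 and 997 lower ones.

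**Figure D1:**
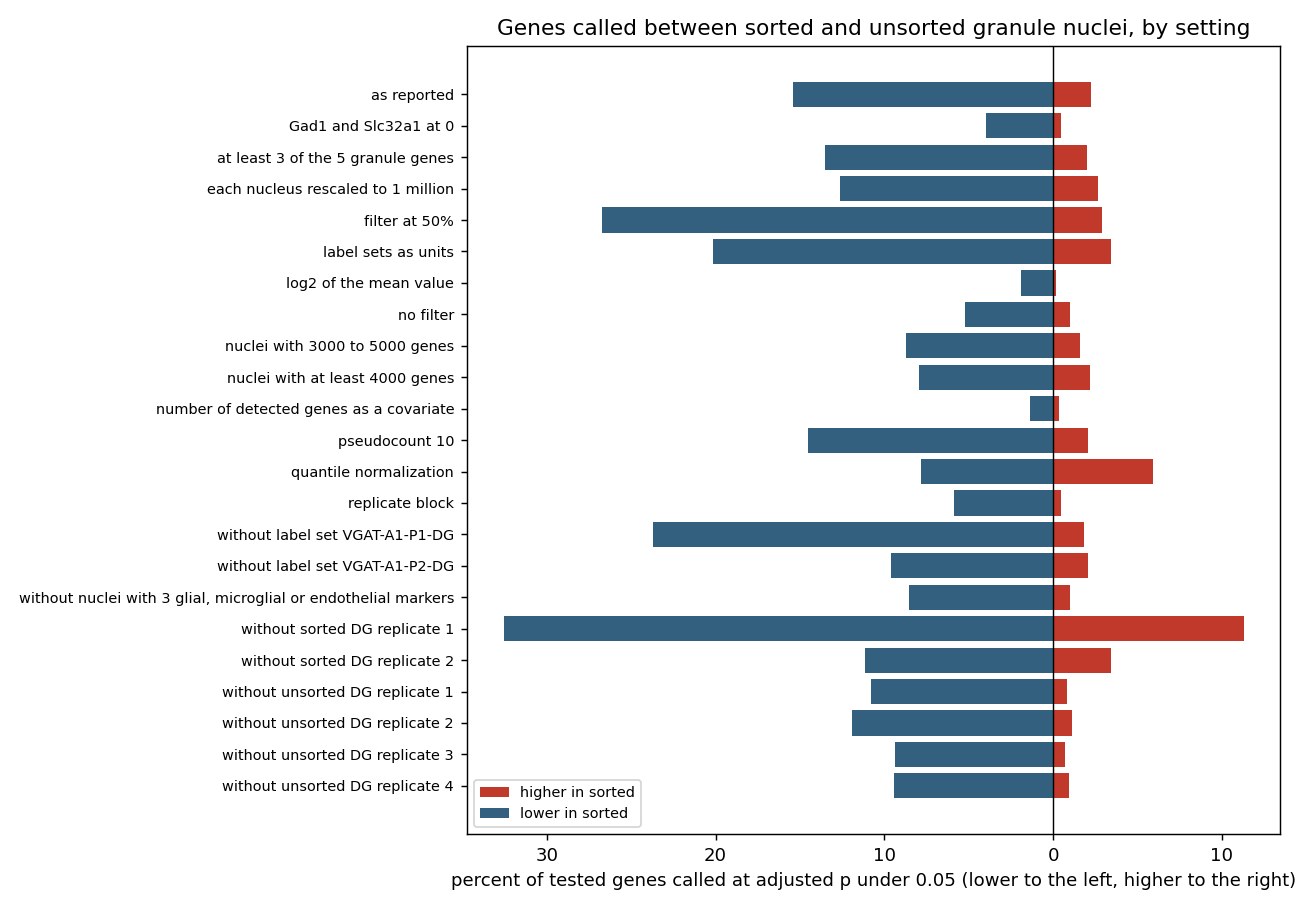
Percent of tested genes called higher (red, to the right) and lower (blue, to the left) in sorted granule nuclei, at an adjusted p under 0.05, as reported and under each of 22 other settings. Lower genes outnumber higher ones in each of these, with 0.383% higher and 1.36% lower under the covariate of detected genes and 11.3% higher and 32.5% lower without sorted preparation 1.

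Genes of high level fell more often than genes of low level. With the tested genes ranked by mean level and split into 4 groups of 2674, 56 rose and 824 fell in the highest group, whereas 86 rose and 91 fell in the lowest. The median difference went from 0.08 in the lowest group to -0.93 in the highest, before the shift by the overall median. The longest transcript of the genes that fell had a median exonic length of 3097 bases and that of the genes that rose 2776.5 bases, against 3360 bases over all tested genes. The part of transcript length or level in the calls was not tested. The counts of the gene lists below stand beside 2.23% of all tested genes higher and 15.4% lower. No list was matched for level.

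The genes Zfp949, Vim, Syne2 and Olfm1 were named with the comparison because earlier results of these data had shown them to differ, so their values are a description and carry no test. Zfp949, a zinc finger gene at chr9:88548020-88571061 (GRCm38, plus strand, GENCODE M21), averaged 7.56 and 9.0 as log2(value + 1) in the sorted preparations and 2.42, 2.79, 3.04 and 1.61 in the unsorted ones. The sorted means lay far above all unsorted means, with a difference of 6.20 relative to the median gene (SE 0.67). It was detected in 43 of 49 sorted and 69 of 236 unsorted granule nuclei. Where it was detected, its mean level was similar: 8.90 and 9.0 in the sorted preparations and 8.28, 8.38, 8.80 and 8.03 in the unsorted ones. The gap between the groups therefore lay mostly in how many nuclei held the transcript. Zinc finger genes have close paralogs, and how reads shared with them were assigned was not examined.

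Vim encodes vimentin, an intermediate filament protein of glia, progenitors and mesenchymal cells that mature neurons usually lack (chr2:13573927-13582826, plus strand). Its mean was 4.88 and 8.45 in the sorted preparations and 0.30, 0.22, 0.13 and 0 in the unsorted ones. It was detected in 22 of 40 and 8 of 9 sorted granule nuclei, and in 5 of 236 unsorted ones. No unsorted preparation came near the sorted ones, and the difference was 6.88 relative to the median gene (SE 0.73, which assumes the same spread in both groups). The standard deviation was 2.53 between the sorted means and 0.13 between the unsorted ones. Among the granule nuclei of C57BL/6 mice of other ages, Vim averaged 0.50 and 0.86 at 4 weeks and 3.84 and 0.20 at 2 years. The first 2-year preparation, with Vim in 19 of 42 nuclei, was the nearest to the sorted ones. Both sets of labels within sorted preparation 1 held Vim, in 16 of 28 nuclei and in 6 of 12.

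Syne2 encodes nesprin-2, a long KASH-domain protein of the outer nuclear membrane (chr12:75818134-76110926, plus strand). It averaged 3.56 and 7.16 in the sorted preparations and 1.14, 1.10, 1.36 and 1.34 in the unsorted ones. Sorted preparation 2 was the highest, with Syne2 in all 9 of its nuclei, against 19 of 40 in sorted preparation 1 and 42 of 236 unsorted nuclei. The standard deviation was 2.54 between the sorted means and 0.14 between the unsorted ones. The difference was 4.50 relative to the median gene (SE 0.75, which assumes the same spread in both groups). Before the median shift it was 4.12, against 2.33 without sorted preparation 2, 5.92 without sorted preparation 1 and 1.55 under the covariate. The tag carries a KASH domain and the table gives 1 value per gene, so reads from the tag and reads from the Syne2 gene could not be told apart.

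Olfm1 encodes olfactomedin 1, a secreted glycoprotein abundant in neurons (chr2:28192992-28230736, plus strand). It averaged 9.06 and 9.27 in the sorted preparations and 13.05, 13.26, 13.80 and 12.93 in the unsorted ones. Every unsorted mean was above both sorted means, and the difference was -3.71 relative to the median gene (SE 0.28). Unlike Zfp949 and Vim, Olfm1 was at a lower level in the nuclei that held it. Where detected, it averaged 10.66 and 10.43 in the sorted preparations and 13.19, 13.26, 13.80 and 12.93 in the unsorted ones. It was detected in 42 of 49 sorted and 235 of 236 unsorted granule nuclei.

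**Figure D2:**
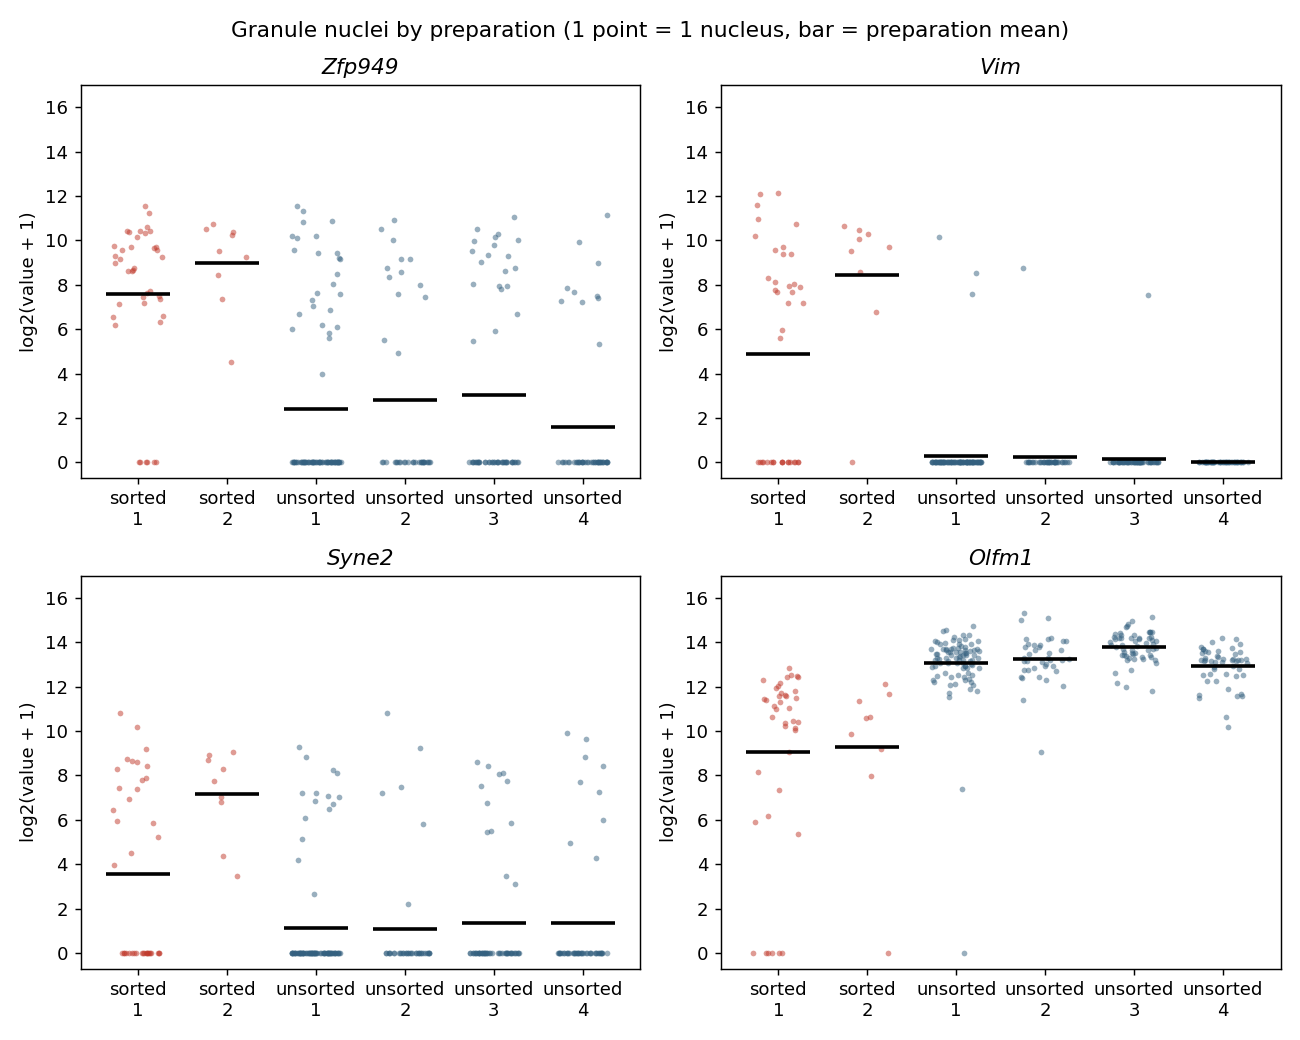
Level of Zfp949, Vim, Syne2 and Olfm1 in each granule nucleus, as log2(value + 1), in 2 sorted (red) and 4 unsorted (blue) preparations; a point is a nucleus and a black bar a preparation mean. Vim is at 0 in all but 5 of 236 unsorted nuclei, and Olfm1 sits near 13 in the unsorted and near 9 in the sorted preparations.

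The higher transcripts were also counted together in each nucleus. Of the 49 sorted granule nuclei, 19 held Zfp949, Vim and Syne2 together, 15 held 2 of these 3, 14 held 1 and 1 held none. Of the 236 unsorted nuclei, none held all 3, 11 held 2, 94 held 1 and 131 held none. These counts follow in part from the share of nuclei with each gene, and whether the genes occur together beyond that was not tested. Sorted nuclei with Vim had a median of 4404 detected genes and those without it 4350.

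Among the other genes that rose, Rnf121, a RING finger ubiquitin ligase of the secretory pathway, averaged 7.34 and 7.76 in the sorted and 2.89, 2.49, 3.31 and 2.98 in the unsorted preparations. The groups were well apart (5.01 relative to the median gene, SE 0.61, limma adjusted p = 0.000172). Sat1, an enzyme that acetylates polyamines for breakdown and export, averaged 4.58 and 6.93 against 2.02, 0.69, 0.96 and 1.17 (4.93, SE 0.67, limma adjusted p = 0.000368). Its sorted values were not outside those of all C57BL/6 granule nuclei, since the first preparation at 4 weeks averaged 5.55 and the first at 2 years 5.45. Stxbp2, a syntaxin-binding protein of regulated secretion, rose by 4.20 (SE 0.80, limma adjusted p = 0.00437), and Nnat, an imprinted membrane protein of the endoplasmic reticulum, by 3.92 (SE 0.68, limma adjusted p = 0.00236). Without sorted preparation 2, the difference of Stxbp2 before the median shift went from 3.83 to 2.24, and with the covariate neither Stxbp2 nor Nnat was called (limma adjusted p = 0.359 and 0.296). Phka2, a regulatory subunit of phosphorylase kinase, and Tmem25, a transmembrane protein, had differences of 3.94 and 3.78, but these rested on the 9 nuclei of sorted preparation 2. Without it, the difference before the median shift went from 3.56 to 1.80 for Phka2 and from 3.40 to 1.49 for Tmem25, and neither was called (limma adjusted p = 0.0847 and 0.182). Pisd-ps3 also rose, by 4.49, though not with the covariate (limma adjusted p = 0.136), and as a pseudogene it can share reads with related copies and its value is uncertain. Its sorted means of 9.26 and 11.36 did not stand above C57BL/6 granule nuclei of other ages. Those averaged 12.08 and 11.31 at 4 weeks and 11.03 and 10.06 at 2 years. Of the 238 higher genes, 148 lay in both sorted preparations above all 8 C57BL/6 granule preparations of any age, against 4.57% of all tested genes. Of the 1650 lower genes, 1339 lay below all 8, against 19.6%. The 8 include the 4 unsorted preparations on which the calls were made, so the excess over these shares adds no separate support. Among all tested genes, 1168 lay above the 4 unsorted preparations without overlap, and 489 lay above all 8. Below them the counts were 3028 and 2099.

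The granule identity of the sorted nuclei was checked with 21 granule-cell markers that the rule did not use. All 21 were tested, 13 fell and none rose, with a median of -1.64 relative to all genes. Over all tested genes 15.4% fell, and 824 of 2674 in the group of highest level. Pcp4, a calmodulin-binding peptide, averaged 4.41 and 3.46 in the sorted and 9.40, 10.11, 11.05 and 10.35 in the unsorted preparations. Both sorted means were below every unsorted one (-5.91, SE 0.56, limma adjusted p = 1.41e-05). Bcl11b, a transcription factor of granule and other projection neurons, averaged 6.83 and 4.36 against 10.16, 10.22, 10.67 and 10.49 (-4.41, SE 0.58, limma adjusted p = 9.83e-05). Ncald, a neuronal calcium sensor, averaged 6.34 and 5.66 against 10.33, 10.55, 10.53 and 11.25 (-4.29, SE 0.45, limma adjusted p = 2.05e-05). Maml2, a Notch coactivator (-3.30), Grm2, a presynaptic metabotropic glutamate receptor (-3.02), the calcium buffer Calb1 (-2.81) and the vesicle protein Synpr (-2.71) also fell. The 8 markers that did not pass lay between -1.35 (Prickle2) and 1.41 (Plk5). These nuclei are therefore called granule nuclei by the rule, since 13 of the 21 other granule markers stood below those of unsorted granule nuclei. The list was also lower in sorted GABAergic nuclei, described below, with 2 of 21 called. Its median before the median shift was -1.63 there and -2.02 in granule nuclei, so the fall was not particular to granule nuclei. In granule nuclei, the number of the 21 that fell was 9 without sorted preparation 2 and 8 after quantile normalization. It was 5 each with the covariate and with the log2 of the mean value.

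Genes of young granule neurons showed no rise in the sorted nuclei. Of 10 tested genes among 18 on that list, 4 fell and none rose, with a median of -0.69, beside 15.4% of all tested genes that fell. Stmn1, a microtubule-destabilizing protein, averaged 3.63 and 1.10 in the sorted and 5.49, 6.86, 6.05 and 6.30 in the unsorted preparations (-3.43, SE 0.74, limma adjusted p = 0.00256). Neurod2 and Bhlhe22, both basic helix-loop-helix transcription factors of neuronal differentiation, fell (-3.35 and -3.00), as did Dpysl5, a protein of axon growth (-1.39). The call of Dpysl5 held in 8 of 21 alternatives and was lost without sorted preparation 2 (limma adjusted p = 0.211) and without unsorted preparation 2, 3 or 4. Dpysl5 was tested through the unsorted preparations alone, so its fall is a description. The doublecortin gene Dcx had a difference of 0.40 and did not pass the test. Under the covariate, none of the list was called.

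Of 19 genes of radial glia and progenitors, 7 were tested, and their values are a description, since Vim was named for its difference and Vim and Gfap were tested through the sorted preparations alone. The members with the highest differences besides Vim were Gfap, the filament protein of astrocytes and radial glia, and Notch2, a receptor of the Notch pathway. Notch2 averaged 5.16 and 4.78 in the sorted and 2.91, 3.09, 2.76 and 2.05 in the unsorted preparations (2.64, SE 0.59, limma adjusted p = 0.0156). Its call held in 12 of 22 alternatives and was lost without nuclei with 3 glial, microglial or endothelial markers and without unsorted preparation 4, among others. Gfap averaged 2.88 and 1.22 against 0.33, 0, 0.22 and 0.20 (2.24, SE 0.44), and was detected in 13 of 49 sorted and 5 of 236 unsorted granule nuclei. Only 8 of the 30 sorted nuclei with Vim also held Gfap.

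Markers of other cell types moved with these genes to differing degrees. Of 13 astrocyte markers, 8 were tested, and Gfap and Ntsr2, a receptor gene of astrocytes, were called higher. Both were tested through the sorted preparations alone, so the list is given as a description. The list's summed level was 0.0681 to 0.257% of a nucleus's total in the sorted preparations and 0.0136 to 0.0390% in the unsorted ones, and no marker of the list was at 0 in all sorted granule nuclei. Without sorted preparation 2, 6 of the 8 rose, and without sorted preparation 1, 1 did. The part of RNA from astrocytes in the rise of Vim and Gfap was not tested. Of 4 tested oligodendrocyte markers, Ermn rose (2.04, called in 11 of 21 alternatives), while Mag, Mal, Ugt8a and Gjb1 were at 0 in all sorted granule nuclei. Microglial markers (2 tested) and endothelial markers (1 tested) had no call, with Tmem119, C1qa and Aif1, and Cldn5, Pecam1, Ly6c1 and Rgs5 at 0. The summed level of the 12 endothelial and mural markers was still higher, at 0.00237 to 0.00930% in the sorted and 0.000254 to 0.00102% in the unsorted preparations. That of the microglial markers overlapped, at 0.000769 to 0.00722% and 0.00122 to 0.0132%. No marker of oligodendrocyte precursors was tested. At least 3 markers of 1 of these glial and vascular lists were detected in 22 of 49 sorted and 87 of 236 unsorted granule nuclei. Without those nuclei, the difference before the median shift was 6.34 for Vim, 5.78 for Zfp949, 4.25 for Syne2 and -3.90 for Olfm1. With them it was 6.50, 5.82, 4.12 and -4.09. Nuclei with fewer than 3 markers of every list stayed in, so these values do not decide the part of astrocyte RNA.

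Of 8 tested intermediate filament genes, 3 of the neuronal ones fell (Ina, Nefl and Nefm), the neurofilament gene Nefh was not called (-0.36), and Vim and Gfap are described above. Ina averaged 3.01 and 0.68 in the sorted and 6.66, 6.49, 6.84 and 7.94 in the unsorted preparations (-4.76, SE 0.73, limma adjusted p = 0.000303). Nefl averaged 5.37 and 3.61 against 8.38, 8.86, 9.44 and 9.45 (-4.17, SE 0.61, limma adjusted p = 0.000187), and Nefm stood at -2.14. With the covariate none of the 3 was called, and without sorted preparation 2 Nefm was not (limma adjusted p = 0.0571).

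Among genes of the nuclear envelope, few besides Syne2 were called. Of 21 tested genes of the lamina, the LINC complex and its partners, 1 rose (Syne2), 1 fell (Banf1, a chromatin-binding protein of the envelope, at -2.16) and 19 were not called, with a median of -0.19. After quantile normalization 2 rose and 1 fell, and with the covariate none was called. Without sorted preparation 2, Banf1 was not called (limma adjusted p = 0.0832). Syne1, which encodes nesprin-1, was detected in all 285 granule nuclei. It averaged 10.58 and 10.24 in the sorted and 10.85, 10.74, 10.71 and 10.55 in the unsorted preparations, a difference of 0.08 relative to the median gene (SE 0.32, limma adjusted p = 0.538). Sun1, a partner of the nesprins in the inner membrane, averaged 5.46 and 10.29 against 5.12, 5.75, 5.58 and 7.11 and did not pass the test (limma adjusted p = 0.167). Its high mean came from sorted preparation 2 only. Sun2 averaged 1.54 and 0 against 1.34, 1.06, 1.99 and 1.98 and was not called either (limma adjusted p = 0.261).

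Many genes of cytosolic ribosomal proteins fell, beside 15.4% of all tested genes and 824 of 2674 in the group of highest level. Of 76 tested, 47 fell, 29 were not called and none rose, with a median of -2.03. Both sorted preparations lay below all unsorted ones for 53 of the 76, against 28.3% of all tested genes. Their summed level was 1.56 to 1.65% of a nucleus's total in the sorted and 2.52 to 3.12% in the unsorted preparations. Rpl8, of the large subunit, averaged 4.01 and 0 in the sorted and 8.59, 10.30, 9.27 and 8.59 in the unsorted preparations (-6.81, SE 0.87, limma adjusted p = 9.83e-05). It was detected in 15 of 49 sorted and 192 of 236 unsorted granule nuclei, and in none of the 9 nuclei of sorted preparation 2. Rps6, of the small subunit, averaged 5.57 and 2.11 against 9.0, 8.75, 8.70 and 9.14 (-4.68, SE 0.75, limma adjusted p = 0.000379). Rpl24 fell as well (-4.58). Rps6 stayed called without sorted preparation 2, with a difference before the median shift of -3.33 in place of -5.06. The members with the highest differences, Rps27 (1.78) and Rpl34 (1.72), did not pass the test. The number that fell was 29 after quantile normalization, 10 with the covariate and 11 with the log2 of the mean value, and the list median stayed below 0 in these settings (-1.77, -1.65 and -0.97).

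Ribosomal protein genes have a known start-site signature, a run of pyrimidines where transcription begins. Promoters of 2 members that fell are shown because they carry such a run, with every run of at least 8 C or T letters within 20 bases of the RefSeq start in capitals. Each window reaches from 100 bases before the start to 30 bases into the transcript, 5′ to 3′ on the gene's strand, from the RefSeq promoter table of GRCm38.p6 (Rps6 at chr4:86857338-86857467, minus strand, and Rps24 at chr14:24490578-24490707, plus strand).
Rps6: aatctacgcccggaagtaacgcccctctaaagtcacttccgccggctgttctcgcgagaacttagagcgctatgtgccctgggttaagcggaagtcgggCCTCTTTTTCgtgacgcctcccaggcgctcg
Rps24: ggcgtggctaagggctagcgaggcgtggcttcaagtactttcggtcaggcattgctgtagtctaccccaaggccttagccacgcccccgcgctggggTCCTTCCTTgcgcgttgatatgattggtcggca
Such a run was present in 26 of 56 matched promoters of tested ribosomal protein genes (46.4%) and in 15.9% of all 27025 promoters, while on the other strand the shares were 7.14% and 17.3%. Promoters of oxidative phosphorylation genes, a list that fell to a similar degree, held it in 7 of 62 (11.3%). The run and its window were chosen after the promoters had been seen, and a match is a description of the letters only.

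Many nuclear genes for oxidative phosphorylation fell, beside 15.4% of all tested genes and 824 of 2674 in the group of highest level. Of 73 tested, 42 fell, 31 were not called and none rose, with a median of -2.01. Cox6a1, a subunit of cytochrome oxidase, averaged 4.34 and 2.37 in the sorted and 8.59, 9.05, 9.01 and 9.52 in the unsorted preparations, with no overlap (-5.31, SE 0.63, limma adjusted p = 5.53e-05). The largest fall was that of Cox5b, of the same complex (-5.95, SE 0.83, limma adjusted p = 0.000172), and Uqcr11, of complex III, and Ndufa4 stood at -4.96 and -4.18. The number that fell was 31 after quantile normalization, 7 with the covariate and 5 with the log2 of the mean value, with list medians of -1.87, -1.67 and -1.18. Mitochondrially encoded genes have no entry in the table.

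**Figure D3:**
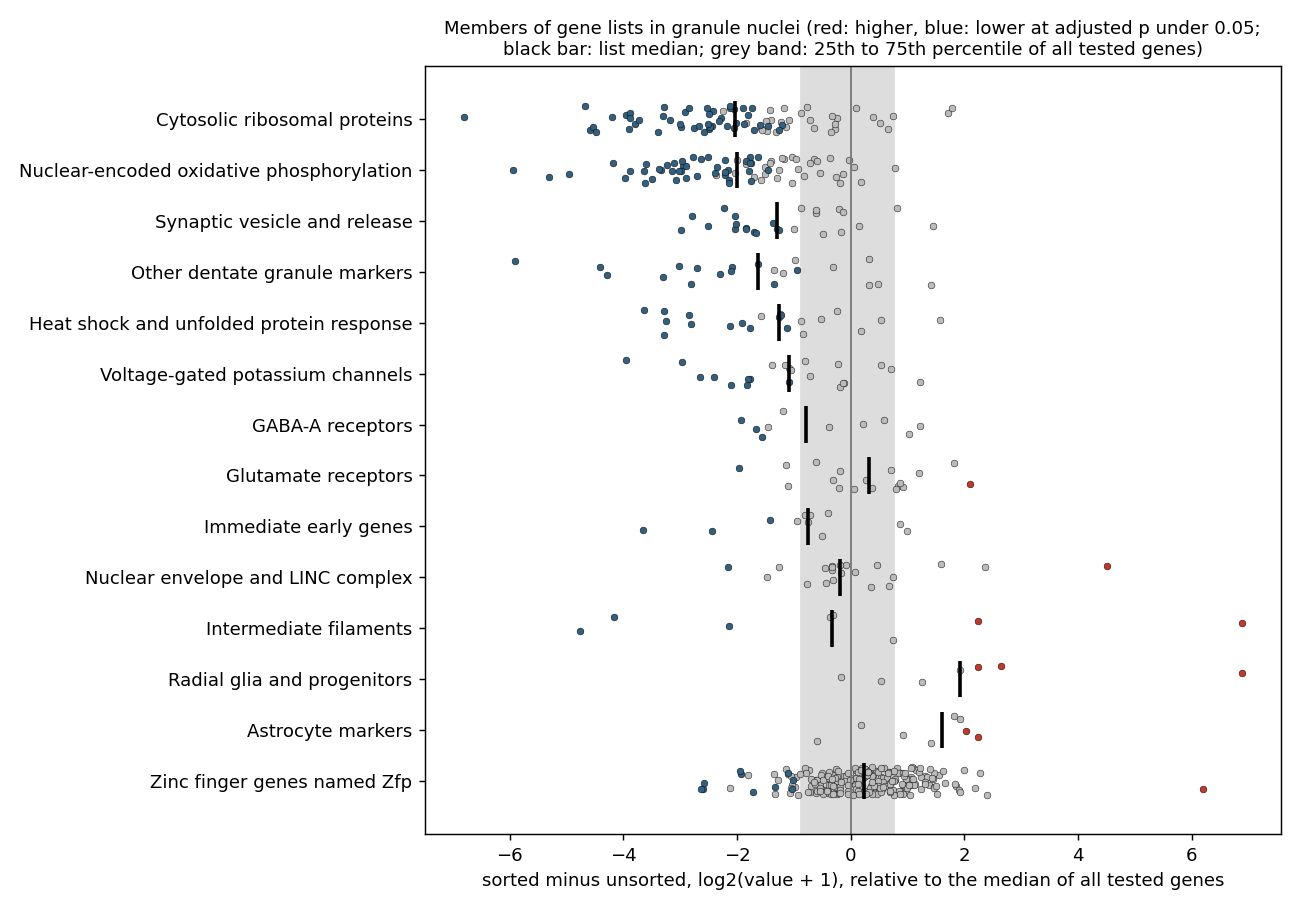
Difference between sorted and unsorted granule nuclei for each tested member of 14 gene lists, as log2(value + 1) relative to the median of all tested genes; red points rose, blue points fell, grey points were not called, the black bar is the list median and the grey band runs from the 25th to the 75th percentile of all tested genes (-0.87 to 0.76). Ribosomal and oxidative phosphorylation genes spread far to the left of it, with medians of -2.03 and -2.01, and Vim (6.88) and Zfp949 (6.20) lie farthest to the right.

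Genes of synaptic release fell in part, beside 15.4% of all tested genes and 824 of 2674 in the group of highest level. Of 25 tested, 14 fell and none rose (median -1.30). Cplx2, a complexin that controls vesicle fusion, averaged 9.18 and 8.79 in the sorted and 11.65, 11.77, 12.13 and 11.93 in the unsorted preparations (-2.51, SE 0.31, limma adjusted p = 5.53e-05). Cplx1 and Syn2 (a synapsin that tethers vesicles) fell too (-2.99 and -2.80). After quantile normalization 6 of the list fell, and 1 with the covariate. Other neuronal genes with large falls were Itpka, an inositol trisphosphate kinase of dendritic spines, at 2.81 and 0.72 against 8.16, 8.70, 9.01 and 6.81 (-6.03, SE 0.75, limma adjusted p = 8.24e-05), and Gabbr2, a subunit of the GABA-B receptor, at 4.50 and 1.52 against 8.51, 8.80, 9.22 and 9.59 (-5.64, SE 0.72, limma adjusted p = 9.83e-05). Nrgn, the postsynaptic calmodulin-binding protein neurogranin, stood at -5.43, and its difference before the median shift went from -5.81 to -3.63 without sorted preparation 2. Beyond the synapse, the X-linked gene Bex2 averaged 5.76 and 3.34 against 11.30, 10.15, 10.75 and 11.17 (-5.91, SE 0.60, limma adjusted p = 2.05e-05). The selenoprotein gene Sepw1, the superoxide dismutase Sod1 and the transcription factor Klf9 fell to a like degree (-5.64, -5.57 and -5.35).

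Ion channels and receptors moved less evenly. Their counts stand beside 15.4% of all tested genes that fell, and 824 of 2674 in the group of highest level. Of 22 tested voltage-gated potassium channel genes, 9 fell and none rose (median -1.09), among them the accessory subunit Kcnab2 (-3.96), the Kv4 partner Kcnip2 (-2.97), Kcnd2 (-2.64) and Kcnq3 (-2.40). After quantile normalization 5 fell, without sorted preparation 2 also 5, and with the covariate 2. Of 10 GABA-A receptor genes, 3 fell and none rose, among them Gabra5 and Gabrb2 (-1.94 and -1.67), and the list median was -0.78. None of the 10 was called after quantile normalization or with the covariate, and without sorted preparation 2 neither Gabra5 nor Gabrb2 was (limma adjusted p = 0.175 and 0.349). Of 18 glutamate receptor genes, 1 rose (the metabotropic receptor Grm3, 2.11), 1 fell (the kainate receptor Grik3, -1.96) and the median was 0.33. Their calls held in 12 of 21 and 11 of 22 alternatives, and that of Grm3 was lost without sorted preparation 2 (limma adjusted p = 0.0593). Grm3 was tested through the sorted preparations alone, so its rise is a description. Of 8 tested olfactomedin genes and partners, 4 fell and none rose (median -1.54). Besides Olfm1, these were Rtn4r and Lingo1, which form the Nogo receptor complex (-3.67 and -1.99), and Olfml2b (-2.10). Lingo1 was not called without sorted preparation 2 (limma adjusted p = 0.0972).

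Lists for stress and infection held no gene called higher, apart from 1 of the p53 list and 1 of the heat shock list after quantile normalization. Over all tested genes 2.23% rose and 15.4% fell, with 824 of 2674 falling in the group of highest level. Of 32 interferon and viral sensing genes, 7 were tested and none was called, with a median of 0.33 and the MHC gene H2-D1 highest at 1.26. The summed level of the 32 was 0.0409 to 0.0514% of a nucleus's total in the sorted and 0.0297 to 0.0407% in the unsorted preparations. In all sorted granule nuclei, 13 of the 32 were at 0. Of 17 p53 and DNA damage genes, 1 fell (Bax, a mediator of apoptosis, -1.65) and none rose, and the call of Bax held in 6 of 22 alternatives. Of 11 tested immediate early genes among 25, 3 fell and none rose (median -0.75). Jun averaged 4.21 and 1.24 in the sorted and 6.96, 5.72, 7.14 and 7.18 in the unsorted preparations (-3.65, SE 0.78, limma adjusted p = 0.0027), and the growth factor Bdnf and the transcription factor Egr3 stood at -2.45 and -1.42. The difference of Jun before the median shift went from -4.03 to -2.54 without sorted preparation 2 and stayed called. Egr3 was tested through the unsorted preparations alone, so its fall is a description. The call of Bdnf held in 16 of 22 alternatives. That of Egr3 held in 4 of 21 and was lost without sorted preparation 2 (limma adjusted p = 0.22), without any 1 unsorted preparation and after quantile normalization. Of 21 heat shock and unfolded protein genes, 12 fell and none rose (median -1.25), led by the endoplasmic reticulum chaperones Calr (-3.64) and Pdia6 (-3.28) and by Hsph1 (-3.28) and Hsp90aa1 (-3.25). Without sorted preparation 2, 8 of these 21 fell, and the differences before the median shift went from -3.66 to -2.32 for Pdia6 and from -3.63 to -2.36 for Hsp90aa1. With the covariate 1 of the 21 fell, and with the log2 of the mean value none did.

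Zinc finger genes did not follow Zfp949. Of 234 tested genes of the Zfp series, Zfp949 alone rose and 10 fell, with a median of 0.24 relative to all genes. Zfp871, Zfp644 and Zfp148 fell the most (-2.64, -2.60 and -2.57), and Zfp644 was not called without sorted preparation 2 (limma adjusted p = 0.317). The split turned with scaling, to 11 higher and 2 lower after quantile normalization and 3 higher and 0 lower with the covariate. It also depended on the sorted preparations, with 8 higher and 3 lower without preparation 2 and 20 higher and 59 lower without preparation 1. Of 4 tested Y-linked genes, Eif2s3y rose (3.28, SE 0.62, limma adjusted p = 0.00466), whereas Ddx3y, Kdm5d and Uty lay at -0.49, -0.63 and 1.52 and were not called.

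Of 14 genes of GABA synthesis, transport and release, 5 were tested, and none was called higher in the sorted granule nuclei. Slc32a1, whose locus carries Cre, was detected in 0 of 49 sorted granule nuclei, which allows a share of up to 6.12% of nuclei with the transcript detected and sets no limit on nuclei that carry it undetected, and in 1 of 236 unsorted ones. In GABAergic nuclei, defined by Gad1 and Gad2 above 0, it was detected in 26 of 51 sorted dentate nuclei (95% Wilson interval 37.7 to 64.1%) and in 24 of 54 unsorted hippocampal nuclei (44.4%). The rule left out nuclei with Gad2, so the shares of granule nuclei with Slc32a1 or Gad1 depend in part on that selection. Gad1, a GABA-synthesizing enzyme, was detected in 26 of 49 sorted and 149 of 236 unsorted granule nuclei. Its means were 5.13 and 3.24 in the sorted and 4.66, 6.94, 6.41 and 5.75 in the unsorted preparations, which overlapped, and the difference did not pass the test (-1.38, SE 0.75, limma adjusted p = 0.115). None of the 5 tested genes of that list was called in either direction (median 0.48), and 1 rose after quantile normalization. For 2 of the 5, both sorted preparations lay above all unsorted ones, beside 10.9% of all tested genes. The summed level of the 14 was 0.0694 to 0.0715% of a nucleus's total in the sorted and 0.0350 to 0.0465% in the unsorted preparations. Among other neuronal markers, 1 of 5 tested GABAergic markers fell (Cck, a neuropeptide, -3.11), 1 of 4 pyramidal markers fell (Fibcd1, -2.23) and 2 of 6 mossy cell markers fell (Cnih3 and Ajap1, -2.04 and -1.45), beside 15.4% of all tested genes. Cck was not called after quantile normalization (limma adjusted p = 0.108). Fibcd1 and Ajap1 were tested through the unsorted preparations alone, so their falls are a description. Slc32a1, Dlx1, Dlx6os1, Npy and Erbb4 were at 0 in all sorted granule nuclei, as were the pyramidal markers Mpped1 and Nov and the mossy cell markers Drd2 and Glp1r. Within 10 Mb of Slc32a1 on chromosome 2, 4 of 164 tested genes rose (2.44%) and 28 fell (17.1%), close to the shares over all genes.

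GABAergic nuclei of the same sorts offered a second class of nuclei for the contrast. They numbered 41 and 10 in the sorted dentate preparations, 13 in a sorted CA preparation, and 28, 21 and 5 in unsorted preparations 1, 3 and 4, with hippocampal regions pooled. There 85 of 13155 tested genes rose (0.646%) and 533 fell (4.05%). Of the 238 genes higher in granule nuclei, 20 were also called higher in GABAergic nuclei, and of the 1650 lower genes, 369 were also called lower, with none called the other way. The medians of these genes in GABAergic nuclei were 0.66 and -1.92 before the median shift, which was -0.31 there. No gene passed the test of the difference between the classes in limma, with 4.58% of the 13155 genes at an unadjusted p under 0.05, so no gene is shown to respond in 1 class only. That fit treated granule and GABAergic nuclei of the same preparation as independent and left their pairing out. The absence of calls therefore does not show that the classes differed alike.

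Zfp949 was detected in 53 of 64 sorted and 20 of 54 unsorted GABAergic nuclei, and Syne2 in 40 of 64 and 13 of 54. These counts pool preparations and regions, and the mix of regions differed between the groups. By region, Zfp949 was detected in 5 of 8 CA23 nuclei of unsorted preparation 3 and in 8 of 13 nuclei of sorted CA. In unsorted dentate gyrus it was detected in 6 of 15, 1 of 9 and 0 of 5. Vim was detected in 25 of 64 sorted and 1 of 54 unsorted GABAergic nuclei, but in only 1 of the 13 from sorted CA. Olfm1 was detected in 37 of 64 and 48 of 54, with means of 5.99, 5.91 and 4.48 in the sorted preparations. In unsorted GABAergic nuclei, Olfm1 averaged 10.77, 11.99 and 12.74 in dentate gyrus. In CA23 it averaged 11.77 in preparation 1 and 5.96 in preparation 3, which overlapped the sorted means. Before the median shift, the differences in GABAergic nuclei were 5.54 for Zfp949 (SE 0.99), 3.21 for Vim (SE 0.90), 3.67 for Syne2 (SE 0.96) and -5.24 for Olfm1 (SE 0.73), given as a description. They are not on the shifted scale used for the granule nuclei. Rnf121, chosen by its size in granule nuclei, rose in GABAergic nuclei too (5.19 before the median shift, SE 0.79, limma adjusted p = 0.00126). Sat1 and Nnat had differences of 0.85 and 0.84 there before that shift and were not called (limma adjusted p = 0.568 and 0.573). Their difference between the classes did not pass adjustment.

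**Figure D4:**
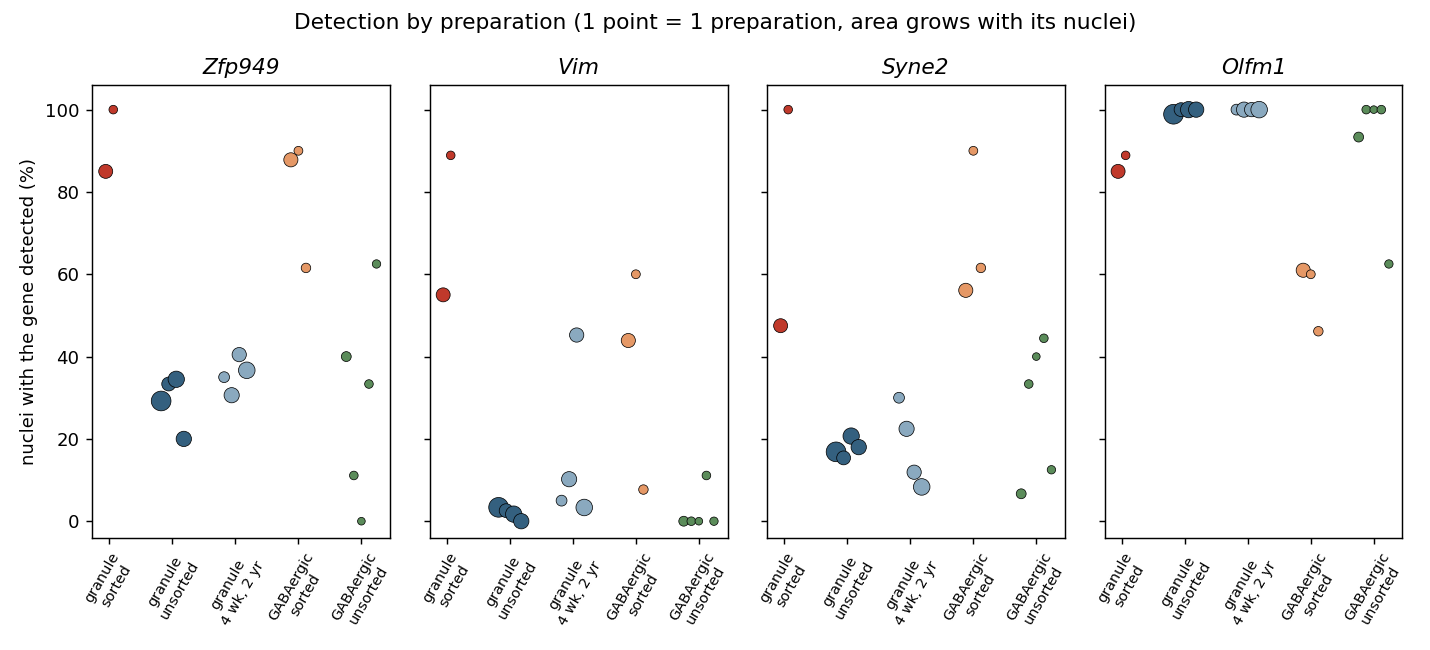
Share of nuclei with Zfp949, Vim, Syne2 and Olfm1 detected, by preparation, in granule nuclei (sorted, unsorted and C57BL/6 of 4 weeks and 2 years) and in GABAergic nuclei (sorted, unsorted, by region where at least 5 nuclei were available); point area grows with the number of nuclei. Vim reaches 45.2% in 1 C57BL/6 preparation of 2 years and 7.69% in the sorted CA preparation, the lowest of the 3 sorted GABAergic points.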

How the data were processed

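Nuclear RNA of single mouse nuclei was measured, and 2 sorted and 4 unsorted preparations of dentate gyrus at 12 weeks were compared. Reads were aligned with Bowtie2 (version not given in the sources used here) and quantified with RSEM 1.27 on mm10 (GRCm38), per the submitters' processing notes. The table the authors deposited holds values on a natural log scale, ln(value + 1), for 25392 genes and 924 nuclei. Its base was checked on 400 pairs of nuclei: differences at a ratio of 2 between low values were 3.81 times as frequent as beside it on a natural log and 0.535 times on a log2 scale. Back-transformed totals had a median of 4.42e+06 per nucleus, so the values are not plain TPM, and the factor is not given in the sources used here. Whether counting used strand is not given in the sources used here, and reads shared by paralogs or overlapping genes cannot be separated.

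Values were averaged per preparation as log2(value + 1) and compared with limma 3.58.1 in R 4.3.3 with a trend in the variance, two-sided, with Benjamini-Hochberg adjustment at 0.05 over all tested genes. The fit assumes the same spread in both groups. Standard errors and adjusted p-values are therefore uncertain where the sorted means lay far apart, as for Vim, Syne2, Sepw1 and Nrgn. A fold change on this scale understates low genes. A gene was tested if its value was above 1 in at least 20% of the granule nuclei of at least 1 preparation, and that value also defined detection. A minimum of 10 granule nuclei per preparation had been set. Sorted preparation 2 has 9 and was kept, because the comparison names both sorted preparations, and the counts without it stand beside the reported ones. On simulated data for this comparison (10696 genes), 54% of genes changed by 2 log2 units and 100% of those changed by 4 were recovered, with 12 false calls. The simulation gave both groups the same spread, so it does not give the recovery of genes whose sorted means lay far apart. Named genes are the 10 largest changes in each direction among called genes without overlap (leaving out rule genes and symbols without a name of function), up to 4 called members of each of 28 lists, the 4 markers given with the comparison and the genes of driver and tag. Some genes that this rule names are not reported here. The comparison, its members and the lists were chosen with earlier results of these data known. Summed levels are means over nuclei of the percent of each nucleus's total. Gene positions are from GENCODE M21. No nuclei had identical columns. Intervals are 95% Wilson intervals, a share of 0 is given the limit of 3 nuclei, and both cover counting error only. Other steps used scipy 1.17.1, pandas 2.3.3, numpy 2.4.6 and matplotlib 3.10.9 in Python 3.11.15. The alternatives are those of the closing section, and 3 of the 22 were chosen after seeing the data.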

Additional observations from a re-analysis of the deposited data

Results flagged for a closer look

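Among the 4 unsorted preparations, 80 values were checked for a single preparation far from the others, which chance flags in about 1 of 20, and 7 were found. Unsorted preparation 2 was the low one for Nefm (5.10, the others 5.89 to 5.94), Banf1 (3.81, the others 4.51 to 4.54), Jun (5.72, the others 6.96 to 7.18) and Gabra5 (4.72, the others 6.41 to 6.57). It was also the only one with Slc32a1, from 1 nucleus (mean 0.13, the others 0). Eif2s3y was high in unsorted preparation 4 (7.68, the others 6.09 to 6.30). Cnih3 was low in unsorted preparation 1 (6.38, the others 7.54 to 7.66). All are means of log2(value + 1), and for Jun, Banf1, Nefm, Gabra5 and Cnih3 both sorted preparations still lay below the low value.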

How the results depend on the processing

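Each of 22 alternatives called more lower than higher genes. Against 2.23% of tested genes higher and 15.4% lower, both counts moved by over 1.5 times with the log2 of the mean value (0.168% and 1.89%), a covariate of detected genes (0.383% and 1.36%), Gad1 and Slc32a1 at 0 (0.495% and 3.98%), without nuclei with 3 glial, microglial or endothelial markers (1.03% and 8.56%) and with quantile normalization (5.95% and 7.82%). With a replicate block, 0.458% were higher and 5.87% lower, but the preparation numbers do not pair the samples: strains differ, and deviations of equal numbers correlate at 0.006 and 0.071. With a filter at 50%, fewer genes were tested: 146 of 5061 were higher (2.88%) and 1352 lower (26.7%). The higher count moved with label sets as units (3.43%). The lower count moved with no filter (5.21%), at least 4000 genes (7.94%), 3000 to 5000 genes (8.73%), without label set VGAT-A1-P2-DG (9.59%) and without label set VGAT-A1-P1-DG (23.7%), the last 3 chosen after seeing the data. Leaving out each preparation gave 0.735 to 11.3% higher and 9.38 to 32.5% lower, and a lone sorted preparation is assumed to vary like the others. The cause of these moves was not tested. The difference in detected genes per nucleus ran from -713.25 to -24.25 with a preparation left out, with no p below 0.133. No alternative called a gene between granule and GABAergic nuclei.

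Of 74 named genes called, 15 were called the same way in all 22 alternatives, among them Rnf121, Pcp4, Bex2, Sod1, Ncald, Cplx2 and Cox6a1. The covariate ended 50 calls, the log2 of the mean 53, the block 23, quantile normalization 12 and leaving out sorted preparation 2 ended 11. With the covariate, the differences of Gabrb2 and Zfp644 turned to 0.022 and 0.42. With 2 against 4 preparations, 1 of them of 9 nuclei, changes of 2 log2 units were often not detectable.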
